A study of Mus musculus with 8 samples.

Results

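The nuclear genes that encode the proteins of the mitochondrial ribosome were followed in mouse osteoclast precursor (OCP) cells treated with RANKL, with PRDX1, with both or with neither. The members were every gene of the deposited expression table whose symbol starts with Mrpl (large subunit) or Mrps (small subunit) and a digit, pseudogenes aside, with a mean of at least 0.5 FPKM (fragments per kilobase of transcript, scaled to the size of the library) over the libraries. All 78 genes that matched the symbols passed this minimum, among 25124 genes in the table and 11700 genes tested. There were 49 Mrpl and 29 Mrps genes.

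Every culture received 30 ng/mL M-CSF, the growth factor that keeps macrophage precursors alive. The 4 groups were no PRDX1 + no RANKL, PRDX1 + no RANKL (200 nM recombinant PRDX1 protein), no PRDX1 + RANKL (100 ng/mL) and PRDX1 + RANKL (the same doses together), each harvested after 48 h and each with 2 libraries. Precursors came from mouse bone marrow and had been expanded for 16 h with 5 ng/mL M-CSF and then for 3 days with 30 ng/mL M-CSF. The labels give C57BL/6 mice aged 6 to 8 weeks, whereas the culture methods of the study name ICR mice, so the strain is uncertain. RANKL is the cytokine that turns these precursors into osteoclasts, and PRDX1 is a peroxidase that, outside cells, can act on Toll-like receptor 4. Nothing in the labels says that the libraries of a group came from separate animals or cultures, so p-values measure only the spread between these libraries, which may be technical. With 2 libraries against 2, an exact permutation test of a single gene cannot go below p = 0.333, so tests came from a model fitted across all genes.

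Mitochondria make a small set of respiratory chain subunits on their own ribosome. Its RNAs are encoded by mitochondrial DNA, but all of its proteins are encoded in the nucleus, made in the cytosol and imported. Part of these proteins have counterparts in the bacterial ribosome and the others exist only in mitochondria, and osteoclasts, which pump acid to resorb bone, are known for their many mitochondria. Among the members, 16 small subunit proteins have bacterial counterparts (for example Mrps5, Mrps6 and Mrps12) and 10 are specific to mitochondria (for example Mrps22, Mrps34 and Mrps35). Of the large subunit proteins, 30 have bacterial counterparts (for example Mrpl12, Mrpl15 and Mrpl34) and 21 are specific to mitochondria (for example Mrpl45, Mrpl51 and Mrpl52). Mrps18a and Mrps30 carry small subunit names but sit in the large subunit, and were placed there. Mrps36 is named as a subunit but is now known as a part of the α-ketoglutarate dehydrogenase complex, so it was kept apart by class.

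The libraries held 24542578 to 41712973 reads on genes. Replicate libraries differed by more than counting error in every group (chi-square per degree of freedom of 4.61 to 9.25), so no library appeared to have been deposited again. Macrophage markers (8 of 8 detected in each group, including Csf1r and Cd68) summed to 15720 to 17480 FPKM without treatment, 16550 to 17010 FPKM with PRDX1, 9857 to 10280 FPKM with RANKL and 13420 to 13820 FPKM with both. Osteoclast markers, including Ctsk and Acp5, summed to 44.8 to 45.5 FPKM without treatment, 88.1 to 92.4 FPKM with PRDX1, 1884 to 1987 FPKM with RANKL and 250.9 to 258.5 FPKM with both. The macrophage sum was thus lowest and the osteoclast sum highest with RANKL alone, the group in which 76 members had their highest mean. With PRDX1 alone the osteoclast sum was also above that without treatment, although no member was called in that comparison. The part of these cell types in the results that follow was not tested. Lymphocyte markers stayed at or below 1.28 FPKM in sum and erythroid markers at or below 0.246 FPKM. Stromal markers summed to 7.50 to 10.4 FPKM in the groups without PRDX1 and 15.4 to 19.1 FPKM in those with it, and neutrophil markers to 1.49 to 1.99 FPKM and 3.81 to 4.47 FPKM. In bulk RNA, a larger share of cells of one kind and more RNA per cell cannot be told apart.

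Members were expressed at a mean of 5.52 to 111 FPKM (median 29.2 FPKM, against 11.2 FPKM over all genes tested). The highest means over the 8 libraries belonged to large subunit genes, namely Mrpl52 (111 FPKM), Mrpl33 (109 FPKM), Mrpl42 (95.3 FPKM), Mrpl12 (91.6 FPKM) and Mrpl30 (81.7 FPKM). The lowest were also large subunit genes, Mrpl17 (5.52 FPKM), Mrpl48 (6.67 FPKM) and Mrpl41 (9.35 FPKM). FPKM is per length of the 1 transcript kept for each gene, so this order depends on that length. It was 6707 bases for Mrpl17, 4547 for Mrpl48 and 2419 for Mrpl41, against a median of 1048 over members. Whether the levels of different genes can be compared was not tested. Behind each value lay 301 to 4483 reads (median 1218.5). Within a group, the replicate libraries of a member differed by a median of 0.05 to 0.08 in log2(FPKM + 1), with the widest gap for Mrps12 in the no PRDX1 + RANKL group, at 0.47.

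The members took 0.294% and 0.289% of the reads on genes in the libraries without treatment. With PRDX1 alone the shares were 0.277% and 0.275%, with RANKL alone 0.403% and 0.403%, and with both 0.316% and 0.311%. Thus the share was highest in both RANKL libraries, and adding PRDX1 to RANKL brought it near the untreated libraries without overlapping them. The 10 most abundant genes took 4.75% and 4.84% of reads in the RANKL libraries and 7.08% to 9.69% in the others. All shares are relative, so the room these genes left to the others moved with the members' share, and its part was not tested.

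**Figure D1:**
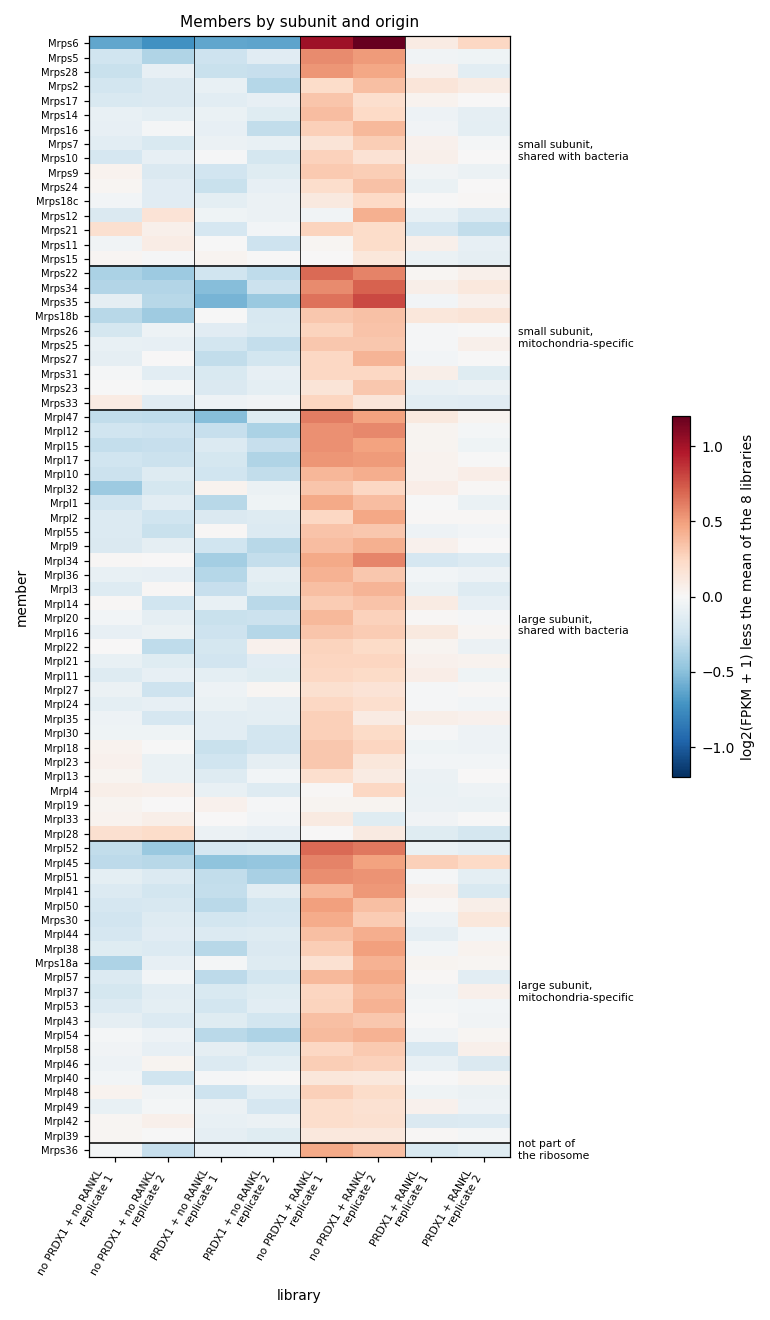
Each row is a member and each column a library, with colour for log2(FPKM + 1) less that gene's mean over the 8 libraries, and lines between the classes of subunit. The no PRDX1 + RANKL columns are the warmest for nearly all rows, and Mrpl28 and Mrpl33 are the 2 members whose group mean was highest without treatment.

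The first question was how the members changed as RANKL drove differentiation. A gene was called when its Benjamini-Hochberg adjusted p over all 11700 genes (limma on log2(FPKM + 1)) was under 0.05 and its fold change was at least 1.5, and values after ± are half-widths of limma's 95% interval. With RANKL and no PRDX1, 19 of the 78 members rose and 0 fell, that is 24.4% called higher, beside 11.8% called higher and 9.96% called lower among all genes tested. The median log2 fold change over the members was 0.43, against 0.10 over all genes and 0.13 over the 1949 genes of like length. By the adjusted p alone, 69 members were higher and 1 was lower, beside 37% and 22.9% of all genes. In 71 members both RANKL libraries lay above both untreated ones, beside 47.7% of all genes, and in 1, Mrpl28, below them (30.2%).

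Of the small subunit, Mrps6 changed most. This counterpart of bacterial S6 stood at 13.1 and 12.2 FPKM without treatment, 13.1 and 13.0 FPKM with PRDX1, 43.0 and 51.0 FPKM with RANKL and 22.3 and 24.9 FPKM with both. RANKL alone thus gave the highest values, the combination lay between, and PRDX1 alone overlapped the untreated libraries. The log2 fold change with RANKL was 1.81 ± 0.19 (adjusted p = 5.43e-08). Mrps6 shares 159 exonic bases on the same strand with Slc5a3, an inositol transporter gene whose FPKM moved likewise (0.699 and 0.656 without treatment, 3.59 and 3.69 with RANKL, 1.37 and 1.48 with both), and reads on the shared bases could count for either gene.

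Mrps22, a mitochondria-specific protein whose inherited loss causes mitochondrial disease, was at 16.7 and 16.1 FPKM without treatment and at 36.0 and 33.8 FPKM with RANKL, and rose by 1.05 ± 0.13 on the log2 scale (adjusted p = 1.77e-07). Mrps34 was at 19.1 and 19.1 FPKM without treatment and at 37.1 and 40.9 FPKM with RANKL, a log2 fold change of 0.99 ± 0.18 (adjusted p = 3.33e-06). It shares exonic bases with Mapk8ip3 on the other strand and with Nme3 on its own, and reads were counted on both strands. Mrps35 was at 21.0 and 17.8 FPKM without treatment and at 36.2 and 39.9 FPKM with RANKL, a log2 fold change of 0.94 ± 0.19 (adjusted p = 6.6e-06). Both RANKL libraries were above both untreated ones in all 3 genes. Among the small subunit proteins, 3 of 16 with bacterial counterparts (Mrps5, Mrps6 and Mrps28) and 4 of 10 specific to mitochondria (Mrps18b, Mrps22, Mrps34 and Mrps35) were called. These were 18.8% and 40%, beside 11.8% of all genes called higher. Of the Mrps18 paralogs, Mrps18b had a log2 fold change of 0.72 and was called, while Mrps18a (0.54) and Mrps18c (0.27) passed the adjusted p but not the fold. With the length trend removed Mrps18b also missed the fold (0.56).

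In the large subunit, Mrpl52 changed most. Its values were 86.9 and 77.9 FPKM without treatment, 92.5 and 93.6 FPKM with PRDX1, 171 and 166 FPKM with RANKL and 101 and 98.7 FPKM with both. RANKL alone again stood apart from the other 3 groups, and the log2 fold change was 1.02 ± 0.12 (adjusted p = 1.34e-07). Mrpl45, which lines the exit tunnel and holds the ribosome to the inner membrane, was at 17.3 and 17.0 FPKM without treatment and at 33.3 and 30.9 FPKM with RANKL, a log2 fold change of 0.87 ± 0.13 (adjusted p = 6.79e-07). Mrpl12, a protein of the stalk that recruits translation factors, was at 75.1 and 74.7 FPKM without treatment and at 131 and 133 FPKM with RANKL, a log2 fold change of 0.81 ± 0.11 (adjusted p = 3.91e-07). Of the large subunit proteins, 7 of 30 with bacterial counterparts and 5 of 21 specific to mitochondria were called. These were 23.3% and 23.8%, beside 11.8% of all genes called higher.

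By place in the ribosome, 4 of 9 exit tunnel proteins were called (median log2 fold change 0.57), as were 2 of 5 stalk proteins, Mrpl10 and Mrpl12 (median 0.48), and 1 of 8 proteins of the central protuberance, Mrpl52 (median 0.32). Among all genes tested 11.8% were called higher. The call of Mrpl10 (0.62) was lost when untreated replicate 1 was left out (0.57), which left 1 of the 5 stalk proteins. The medians by class were 0.37 and 0.43 for the shared and the mitochondria-specific proteins of the small subunit, and 0.41 and 0.49 for those of the large. Whether classes or places differed was not tested. The rise was not uniform. Mrpl28 was at 72.2 and 73.7 FPKM without treatment and at 63.3 and 68.0 FPKM with RANKL, a log2 fold change of -0.15 ± 0.12 (adjusted p = 0.0285, short of the fold). Mrpl33 was at 112 and 114 FPKM without treatment and at 117 and 98.3 FPKM with RANKL, so its groups overlapped (log2 fold change -0.07 ± 0.16, and 0.05 when RANKL replicate 2 was left out).

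Short transcripts as a whole moved with RANKL. Among all genes tested, the median log2 fold change was 0.17 over the 2928 genes with the shortest transcripts and 0.06 over the 2925 with the longest, and members are short (median 1048 bases, against 2659 over all genes tested). Within the members, the shorter 39 had a median of 0.40 and the longer 39 a median of 0.48. With the length trend over all genes removed, 11 of the 19 members were called, none was added, and the median was 0.27. The 8 lost were Mrpl1, Mrpl10, Mrpl32, Mrpl41, Mrpl50, Mrpl51, Mrps18b and Mrps28. Under that setting 9 members that had been above 0 lay below it, among them Mrps18c and Mrpl42. Of the 9, 3 had an adjusted p under 0.05 in the main fit. When untreated replicate 1 was left out, the calls of Mrpl1, Mrpl10 and Mrpl32 were lost, and when RANKL replicate 1 was left out, those of Mrpl1, Mrpl32 and Mrpl50.

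**Figure D2:**
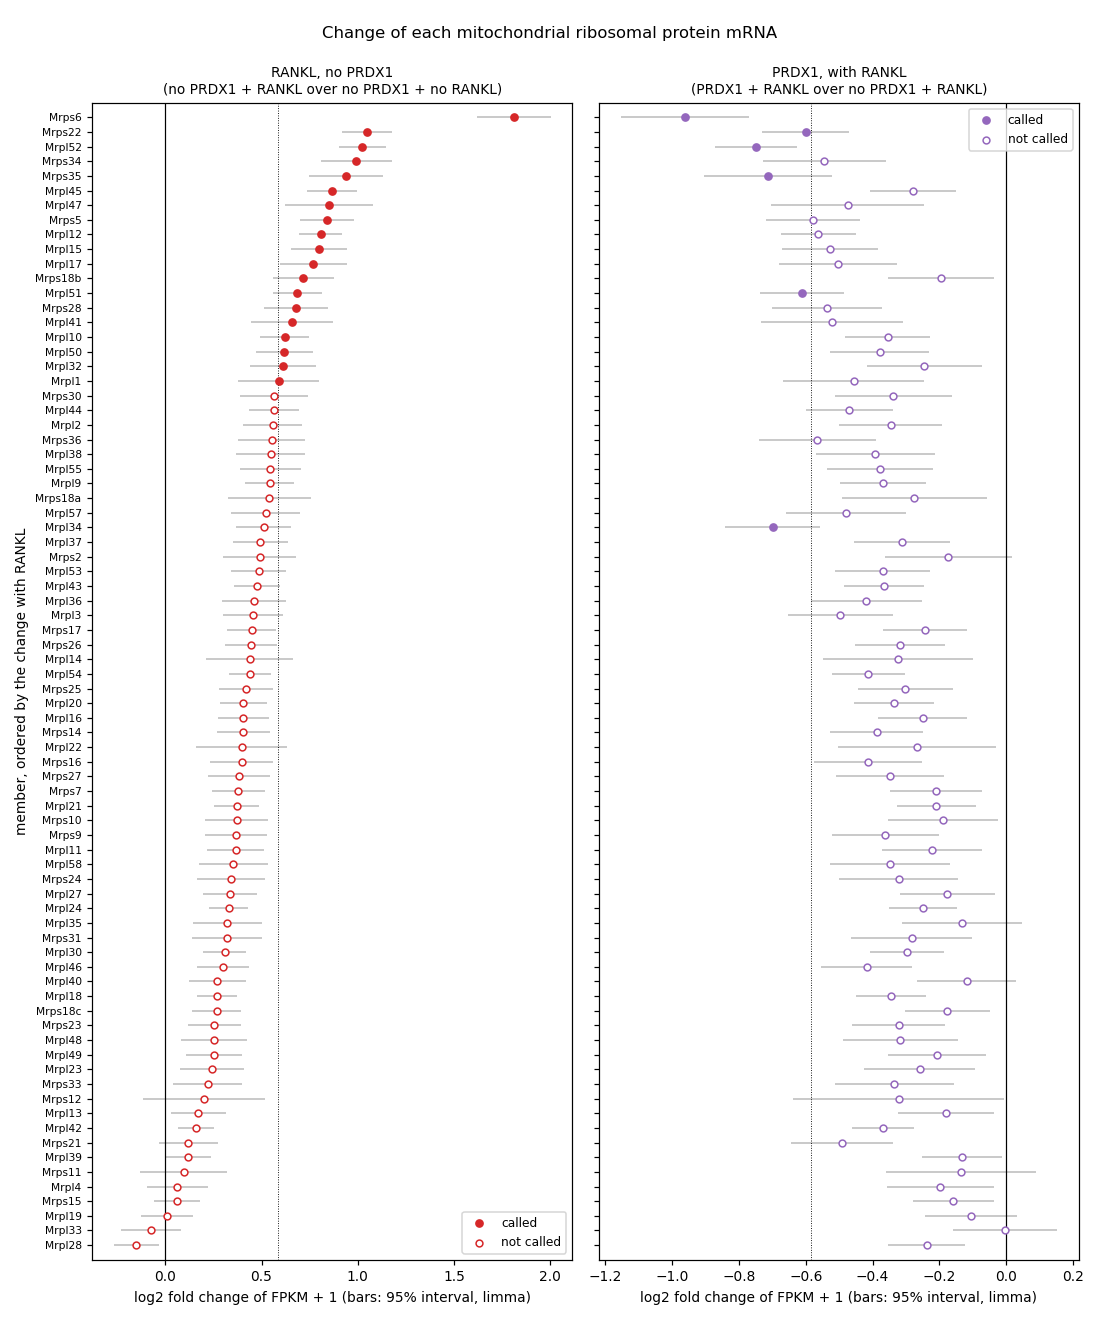
Points are log2 fold changes of FPKM + 1 for each member with limma's 95% interval, for RANKL without PRDX1 (left) and PRDX1 with RANKL (right), filled where called, with the dotted line at the fold of 1.5. On the left 76 of 78 members lie above 0, and on the right all 78 lie below 0, although with the length trend removed 9 and 7 members change sign.

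Promoters are shown for 4 members that rose with RANKL and for Mrpl28, which did not, so that their sequences can be set side by side. Mrpl33, which did not rise either, is not among those printed. The printed stretches are the 150 bases before the RefSeq start (assembly GRCm38.p6), read 5′ to 3′ on the strand of the gene. Capitals mark letters of 4 motifs searched on both strands: the NRF1 core (NRF1 is a factor known for nuclear genes of mitochondria, and its 10 letters, with the sixth left free, are the capitals in the Mrpl45 stretch), CCGGAAG (ETS factors such as GABP), AAGATGGCG (YY1) and CCAAT (the NF-Y box). No motif contains another. Mrps6, Mrps22 and Mrpl52 had the largest rises with RANKL and no PRDX1, Mrpl45 was called in every RANKL comparison, and Mrpl28 was highest without treatment.
Mrps6, chr16:92058186-92058335, plus strand: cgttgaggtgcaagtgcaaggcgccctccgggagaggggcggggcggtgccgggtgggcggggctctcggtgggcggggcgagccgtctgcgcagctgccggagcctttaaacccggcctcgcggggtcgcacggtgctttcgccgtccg
Mrps22, chr9:98601680-98601829, minus strand: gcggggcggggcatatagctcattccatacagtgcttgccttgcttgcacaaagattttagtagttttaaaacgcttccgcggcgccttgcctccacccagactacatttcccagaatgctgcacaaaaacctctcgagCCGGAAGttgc
Mrpl52, chr14:54426759-54426908, plus strand: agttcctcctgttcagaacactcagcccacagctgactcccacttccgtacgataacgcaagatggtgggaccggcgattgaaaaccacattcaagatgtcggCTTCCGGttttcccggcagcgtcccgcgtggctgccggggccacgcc
Mrpl45, chr11:97315566-97315715, plus strand: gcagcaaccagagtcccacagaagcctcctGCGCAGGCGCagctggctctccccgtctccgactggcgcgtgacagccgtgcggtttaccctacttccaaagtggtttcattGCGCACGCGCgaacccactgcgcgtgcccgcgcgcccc
Mrpl28, chr17:26123353-26123502, plus strand: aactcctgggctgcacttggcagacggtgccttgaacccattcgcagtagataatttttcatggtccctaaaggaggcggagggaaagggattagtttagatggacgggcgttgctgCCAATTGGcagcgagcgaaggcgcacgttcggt

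Mrps22 and Mrpl52 thus hold the ETS letters (on the other strand in Mrpl52), Mrpl45 holds the NRF1 letters, Mrpl28 holds CCAAT on both strands, overlapping itself, and Mrps6 holds none of the 4. Promoter windows from 250 bases before to 50 after the start were found for 69 of the 78 members. The window of Mrpl33, which did not rise with RANKL, held both the ETS letters and CCAAT. The printed promoters therefore give no contrast between members that rose and members that did not, and such a contrast was not tested. The NRF1 letters occurred in 13 of them (18.8%, beside 12.3% of tested genes and 4.6% of all promoters) and the ETS letters in 26 (37.7%, beside 21.7% and 8.86%). The YY1 letters occurred in 8 (11.6%, beside 3.88% and 1.4%) and CCAAT in 27 (39.1%, beside 43.2% and 37.4%). Any of NRF1, ETS or YY1 was present in 41 (59.4%, beside 33.6% of tested genes). Of the 15 matched members that rose with RANKL, 4 held NRF1, 5 ETS, 0 YY1 and 3 CCAAT. A match describes the letters and is no evidence of binding.

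The next question was what PRDX1 did to cells that also received RANKL. In PRDX1 + RANKL against no PRDX1 + RANKL, 6 members fell and 0 rose (7.69% called lower, beside 4.17% called lower and 6.03% called higher among all genes). The median log2 fold change was -0.34, against -0.06 over all genes and -0.12 over genes of like length. All 78 values were below 0. With the length trend removed 7 were above it, 4 of which had an adjusted p under 0.05 in the main fit. Under the other scalings 1, Mrpl33, was above 0. By the adjusted p alone 68 members were lower and 0 higher, beside 25.6% and 16.9% of all genes. In 76 members both PRDX1 + RANKL libraries lay below both RANKL libraries, beside 43.1% of all genes, and in 0 above them (27.9%). This comparison shares the no PRDX1 + RANKL libraries with the one before it, where they enter with the opposite sign.

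Mrps6 had the largest fall, from 43.0 and 51.0 FPKM to 22.3 and 24.9 FPKM (log2 fold change -0.96 ± 0.19, adjusted p = 1.36e-05). Slc5a3, which shares exonic bases with it, had a log2 fold change of -0.93 in the same comparison. Mrpl52 went from 171 and 166 FPKM to 101 and 98.7 FPKM (-0.75 ± 0.12, adjusted p = 3.45e-06). Both genes stayed above the untreated libraries in both libraries of the combination.

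Mrps35 went from 36.2 and 39.9 FPKM to 22.1 and 23.5 FPKM (log2 fold change -0.71 ± 0.19, adjusted p = 0.000105). Mrpl34, the counterpart of bacterial L34, went from 49.4 and 54.3 FPKM to 31.1 and 31.9 FPKM (-0.70 ± 0.14, adjusted p = 1.51e-05), which was below its untreated libraries at 36.2 and 35.9 FPKM. Mrpl51, a mitochondria-specific protein of the large subunit, went from 66.2 and 65.1 FPKM to 44.3 and 41.0 FPKM (-0.61 ± 0.13, adjusted p = 1.76e-05). Its call was lost when PRDX1 + RANKL replicate 2 was left out (-0.56). Mrps22, the sixth called gene, went from 36.0 and 33.8 FPKM to 22.4 and 23.0 FPKM (-0.60 ± 0.13, adjusted p = 2.47e-05), a call lost when RANKL replicate 1 (-0.56) or PRDX1 + RANKL replicate 1 (-0.58) was left out. The calls of Mrpl51 and Mrps22 were also lost under quantile normalization (-0.57 and -0.56) and upper quartile scaling (-0.56 and -0.55). Of the 6 called genes, 3 belong to the small subunit and 3 to the large.

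The other 72 members missed the fold of 1.5 while most passed the adjusted p, so the lower levels were spread over most members, each by a small fold. Medians of the ribosomal classes lay between -0.37 (mitochondria-specific, large subunit) and -0.31 (shared, large subunit), and Mrps36, kept apart, had -0.57. Mrpl33 changed least, from 117 and 98.3 FPKM to 105 and 108 FPKM. The shorter 39 members had a median of -0.33 and the longer 39 a median of -0.34, whereas over all genes the median was -0.14 over the 2928 shortest and -0.02 over the 2925 longest. With the length trend removed, Mrps6 was the 1 member called and the median was -0.19.

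**Figure D3:**
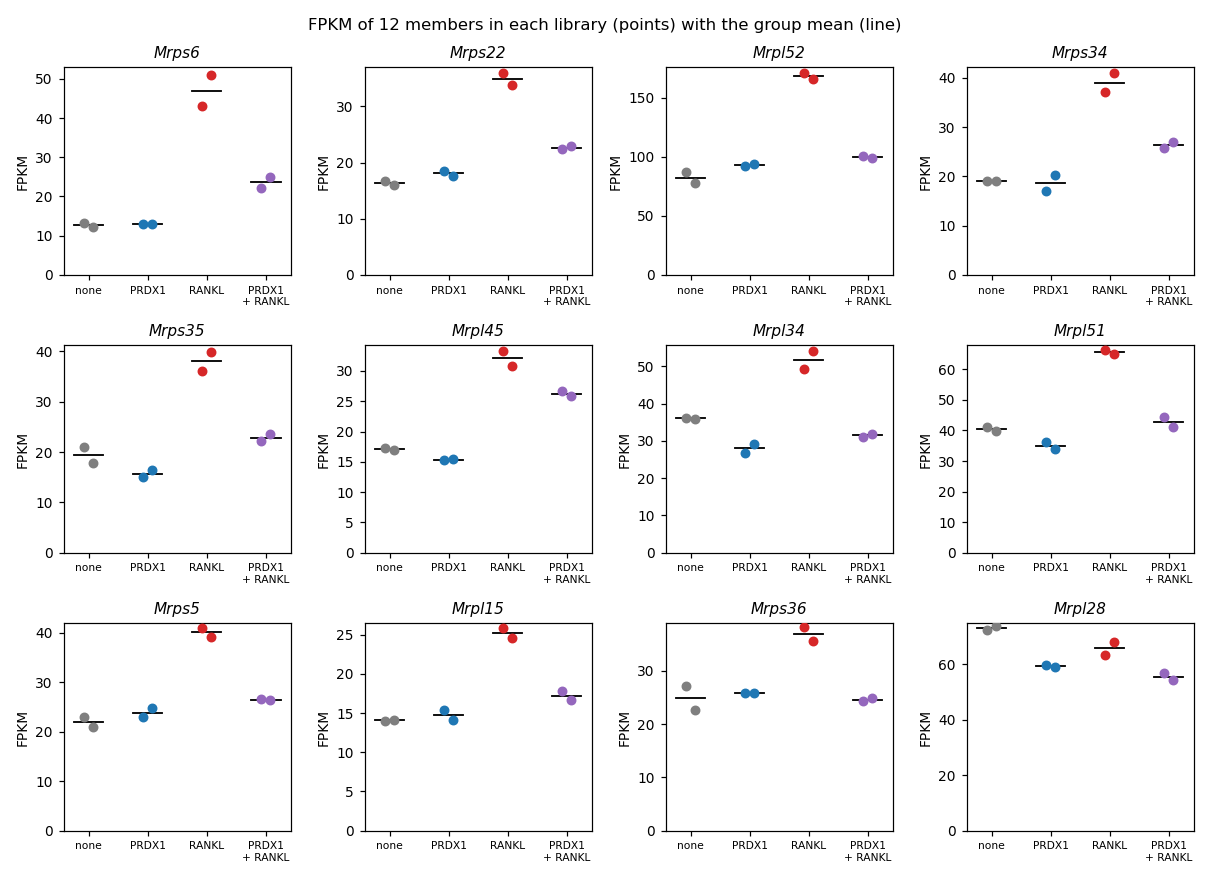
Points are FPKM in each library and lines group means for 12 members named in the text, with groups along the x axis. For 11 of them both RANKL libraries lie above all other libraries, and Mrpl28 is highest without treatment.

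In the presence of PRDX1, the share of members called higher with RANKL was below that of all genes. In PRDX1 + RANKL against PRDX1 + no RANKL, 2 members rose and 0 fell (2.56% called higher, beside 4.52% called higher and 3.98% called lower among all genes). Mrps6 went from 13.1 and 13.0 FPKM to 22.3 and 24.9 FPKM (log2 fold change 0.80 ± 0.19, adjusted p = 6e-05). Mrpl45 went from 15.3 and 15.5 FPKM to 26.7 and 25.8 FPKM (0.74 ± 0.13, adjusted p = 7.76e-06). The median over members was 0.14, against 0.07 over all genes (0.092 under quantile normalization and upper quartile scaling, 0.082 with the length trend removed), and by the adjusted p alone 27 members were higher and 0 lower, beside 26.2% and 14.4% of all genes. In 53 members the PRDX1 + RANKL libraries lay above those with PRDX1 alone and in 7 below (47.3% and 27% of all genes). The count of called members was 4 without PRDX1 + no RANKL replicate 2.

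Cells that received both proteins were also set against untreated cells. Against no PRDX1 + no RANKL, 2 members rose and 0 fell (2.56% called higher, beside 7.5% called higher and 5.34% called lower among all genes). They were again Mrps6 (0.85 ± 0.19, adjusted p = 2.66e-05) and Mrpl45 (0.59 ± 0.13, adjusted p = 2.21e-05). The median was 0.11, against 0.03 over all genes. By the adjusted p alone 22 members were higher and 4 lower (24.7% and 19.5% of all genes), the 4 being Mrpl28 (-0.39), Mrps21 (-0.37), Mrpl42 (-0.21) and Mrpl34 (-0.19). The libraries of the combination lay above the untreated ones in 42 members and below them in 12 (41.6% and 33% of all genes). The call of Mrpl45 stood just past the fold and was lost when untreated replicate 2 (0.58) or PRDX1 + RANKL replicate 1 (0.57) was left out.

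With PRDX1 and no RANKL, no member passed the rule for a call. In PRDX1 + no RANKL against no PRDX1 + no RANKL, limma called 0 of the 78 members, beside 3.8% called higher and 1.99% called lower among all genes. At an unadjusted p under 0.05, 22 members differed (4 higher and 18 lower), beside 39.8% of all genes, and voom on the recovered reads also called 0. Log2 fold changes ran from -0.35 (Mrpl34) to 0.31 (Mrpl32), with a median of -0.06 against -0.04 over all genes (-0.023 over members with the length trend removed). By the adjusted p alone 3 members were higher (Mrpl32, Mrps18b and Mrpl52) and 9 lower, beside 12.2% and 17.6% of all genes. The PRDX1 libraries lay above the untreated ones in 10 members and below them in 29 (26.1% and 39.7% of all genes). Mrpl34 was at 36.2 and 35.9 FPKM without treatment and at 26.7 and 29.3 FPKM with PRDX1 (-0.35 ± 0.14, adjusted p = 0.00227), and Mrpl28 at 72.2 and 73.7 FPKM and at 59.8 and 58.9 FPKM (-0.29 ± 0.12, adjusted p = 0.00216). The half-width of the 95% interval had a median of 0.15 over members and reached 0.32, so changes well below the fold of 1.5 could be seen for most members.

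The effect of PRDX1 therefore needed a test of its difference between cells with and without RANKL. This interaction was called for 6 members, all negative (4.35% called lower and 4.5% called higher among all genes), with a median over members of -0.28 against -0.01 over all genes and -0.08 over genes of like length (-0.17 over members with the length trend removed). By the adjusted p alone 34 members were negative and 0 positive, beside 12% and 11.2% of all genes. It was -1.01 ± 0.27 for Mrps6 (adjusted p = 0.000283), -0.92 ± 0.17 for Mrpl52 (adjusted p = 2.84e-05) and -0.73 ± 0.18 for Mrps22 (adjusted p = 0.000173). The PRDX1 effects of these 3 genes were 0.04, 0.18 and 0.13 without RANKL and -0.96, -0.75 and -0.60 with it.

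The other 3 were Mrps5, Mrps36 and Mrpl15. Mrps5, the counterpart of bacterial S5, was at 22.9 and 21.0 FPKM without treatment, 22.9 and 24.8 FPKM with PRDX1, 40.9 and 39.2 FPKM with RANKL and 26.6 and 26.4 FPKM with both, an interaction of -0.69 ± 0.20 (adjusted p = 0.0004). Mrps36 was at 27.1 and 22.7 FPKM, 25.7 and 25.9 FPKM, 38.1 and 35.6 FPKM, and 24.2 and 24.9 FPKM in the same order (-0.62 ± 0.25, adjusted p = 0.00287). Mrpl15, the counterpart of bacterial L15, was at 14.0 and 14.1 FPKM, 15.3 and 14.1 FPKM, 25.8 and 24.6 FPKM, and 17.7 and 16.6 FPKM (-0.59 ± 0.20, adjusted p = 0.0013). In all 3 both RANKL libraries lay above every other library, and in Mrps5 and Mrpl15 the libraries with both proteins also lay above all libraries without RANKL. The call of Mrps36 was lost when untreated replicate 2 (-0.50) or RANKL replicate 1 (-0.57) was left out. That of Mrpl15 was lost when untreated replicate 1 (-0.58), PRDX1 replicate 1 (-0.53), RANKL replicate 1 (-0.55) or PRDX1 + RANKL replicate 2 (-0.54) was left out. With the length trend removed neither was called (-0.45 and -0.55). Among the RANKL-raised genes, Mrpl45 had an interaction of -0.13 ± 0.18 (adjusted p = 0.296), so no difference in its PRDX1 effect was detected within this interval.

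The members were set beside the cytosolic ribosome and beside complex I, the respiratory enzyme part of which mitochondrial ribosomes make. With RANKL and no PRDX1 the median log2 fold change was 0.43 over the 78 members, 0.48 over 86 cytosolic ribosomal protein genes (18 called higher, 20.9%) and 0.44 over 36 nuclear complex I genes (7 called higher, 19.4%). Over all genes tested the median was 0.10 and 11.8% were called higher. With PRDX1 on top of RANKL the medians were -0.34, -0.40 (4 called lower, 4.65%) and -0.44 (5 called lower, 13.9%). Over all genes tested the median was -0.06 and 4.17% were called lower, near the share of the cytosolic genes. The medians of the 3 groups lay close to each other, and their differences were not tested.

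**Figure D4:**
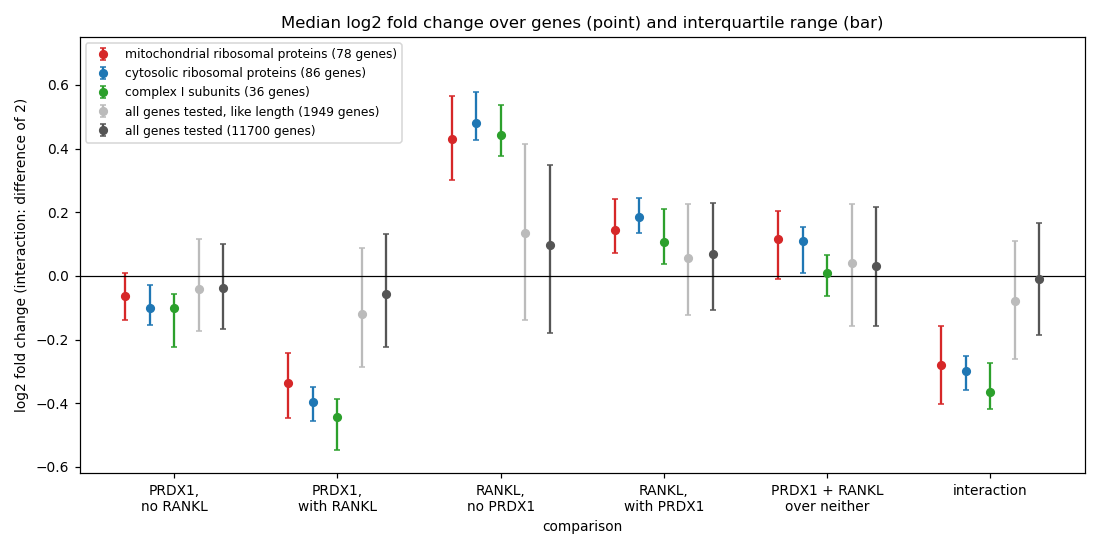
Points are median log2 fold changes over the genes of each group and bars their interquartile ranges, for the 5 comparisons and the interaction. The members (red) move with cytosolic ribosomal proteins and complex I subunits, away from 0 when RANKL is added without PRDX1 (0.43) and when PRDX1 is added to RANKL (-0.34).

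Other genes of mitochondrial gene expression were counted in the same fit. With RANKL and no PRDX1, 14 of the 73 genes of these lists were called, all higher, beside 11.8% of all genes called higher, and no list was tested against that share. Of 5 ribosomal subunits under other names, Ptcd3 rose with RANKL (16.3 and 15.7 to 30.3 and 28.3 FPKM, log2 fold change 0.83), while Dap3, the other long-known small subunit protein of this list, had 0.27. Of 27 genes for ribosome assembly and rRNA modification, 5 rose with RANKL. The largest changes were in C1qbp, a matrix protein needed for translation (68.4 and 76.9 to 130 and 133 FPKM, 0.85), Noa1, a GTPase of small subunit assembly (0.69), and Malsu1, which binds the large subunit (0.68). Rbfa, a maturation factor of the small subunit, went the other way, with -0.56 by RANKL (short of the fold), and fell in PRDX1 + RANKL against untreated cells (48.1 and 48.3 to 30.2 and 26.6 FPKM, -0.75).

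Of 11 translation factors, 3 rose with RANKL, namely the elongation factors Tufm (35.4 and 40.1 to 64.5 and 72.5 FPKM, 0.84) and Gfm1 (0.81) and the exchange factor of Tufm, Tsfm (0.73). Of 20 aminoacyl-tRNA synthetase and amidotransferase genes, which load tRNAs in mitochondria, 4 rose, led by Yars2 (0.81), Tars2 (0.71) and Mars2 (0.67). Of 4 genes for insertion of the products and activation of translation, Letm1 rose (0.61). Of 6 genes for transcription of mitochondrial DNA and stability of its RNAs, including Tfam and Polrmt, limma called 0, with a median of 0.47 (6 had an unadjusted p under 0.05, beside 64.1% of all genes, 5 were higher by the adjusted p alone, beside 37%, and voom called 2). For PRDX1 with RANKL, limma called 0 of the 73 genes of these lists, with 45 at an unadjusted p under 0.05 (beside 50.2% of all genes tested) and 2 called by voom, and the medians of the lists were -0.33 to -0.12. For PRDX1 without RANKL, limma also called 0 of the 73, with 9 at an unadjusted p under 0.05 (beside 39.8% of all genes) and 1 called by voom. The interaction was called for Malsu1 and Tsfm (both -0.62).

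**Figure D5:**
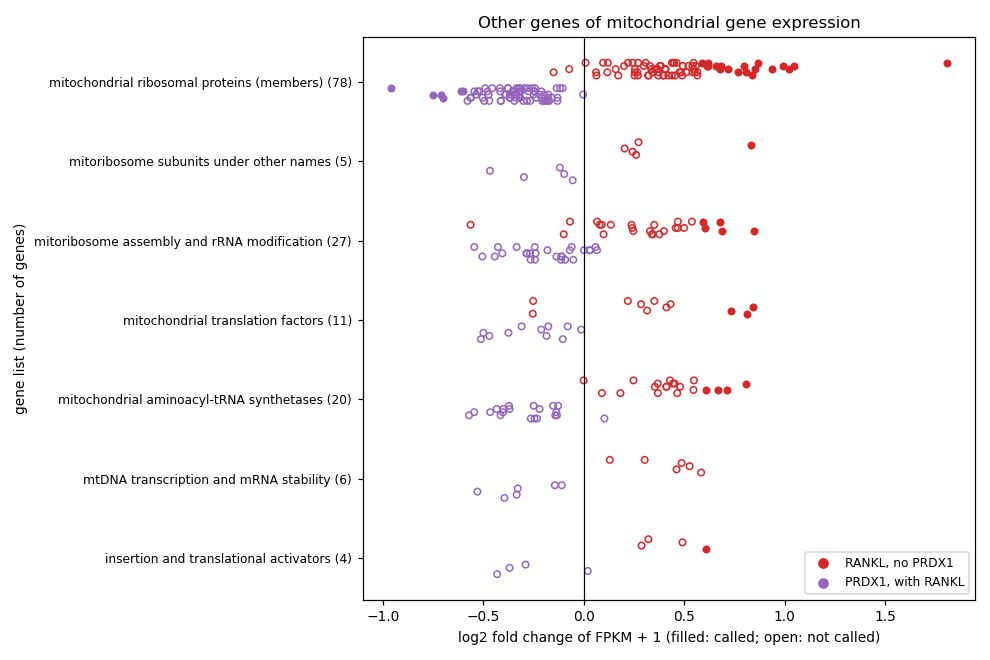
Each point is a gene at its log2 fold change of FPKM + 1, by RANKL without PRDX1 (red) and by PRDX1 with RANKL (purple), filled where called, in rows for the members and for 6 lists of other genes. Red points lie mostly above 0 and purple points mostly below 0 in every row, and filled purple points occur in the row of the members alone.

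Overlap of gene models limits some values, since reads were counted on both strands. In the GENCODE annotation of the same assembly, 33 of the 78 members share exonic bases with another gene, and 24 with a gene that is also in the table. Among the members that rose with RANKL, these 24 include Mrps6, Mrps34, Mrpl47 and Mrpl51, so their values are uncertain in this respect. Mrps22, Mrps35, Mrps5, Mrpl52, Mrpl45, Mrpl34, Mrpl15 and Mrps36 share no exonic base with any annotated gene.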

How the data were processed

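RNA was sequenced as paired reads. The authors aligned the reads (HISAT2 and HOMER are named in the submitters' processing notes, without versions), counted them on exons of mm10 RefSeq genes on both strands, kept 1 transcript per gene and deposited FPKM values. A product of FPKM and transcript length gave whole reads (within 0.1 read) for 100% of the genes checked in each library. DESeq2 is also named in the notes and was not used here.

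FPKM are not counts, so log2(FPKM + 1) of 11700 genes with a mean of at least 0.5 FPKM was fitted by limma 3.58.1 in R 4.3.3, with 4 groups, all 8 libraries, 4 residual degrees of freedom and an intensity trend, after a check on simulated data. Genes with adjusted p under 0.05 and a fold of at least 1.5 were called. Fold changes on this scale understate the change of low genes.

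The members and gene lists were chosen with earlier results of these data known. Named are the 5 called members with the largest rise and fall per comparison, calls against the main direction, up to 8 members called by the interaction, the 5 highest and 3 lowest levels, up to 3 called genes per other list, and Mrps36 and the Mrps18 paralogs. Other members named singly or within a class, and Dap3, Tfam, Polrmt and Slc5a3, were added after their values were seen. Promoters came from RefSeq and exon overlaps from GENCODE, both of GRCm38. No gene of the mitochondrial genome was analysed here. Alternatives covered the pseudocount, low-value filter, scaling, length trend, replicate block, voom, the intensity trend and each library left out.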

Additional observations from a re-analysis of the deposited data

Results flagged for a closer look

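The effect of PRDX1 differed between cells with and without RANKL for 6 members, by the interaction term of limma. The difference in log2 fold change (with RANKL less without) was -1.01 for Mrps6, -0.92 for Mrpl52, -0.73 for Mrps22, -0.69 for Mrps5, -0.62 for Mrps36 and -0.59 for Mrpl15. The calls of Mrps36 and Mrpl15 were lost with the length trend removed. Both PRDX1 + RANKL libraries lay below both RANKL libraries in all 6, as in 76 of the 78 members and 43.1% of all genes. The interaction that picked the 6 uses these same libraries, so their position is no separate support. Groups of 2 libraries were too small for a test of single outlying libraries.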

How the results depend on the processing

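No member called by both the adjusted p and the fold changed sign under any alternative run. The median of all genes tested moved by less than 0.1 (log2) under every scaling. Members that were not called did change sign with the length trend removed, 14 and 7 for PRDX1 without and with RANKL, 9 and 9 for RANKL without and with PRDX1, 5 for both against neither and 8 for the interaction. Of these, 4 for PRDX1 with RANKL and 3 for RANKL without PRDX1 had an adjusted p under 0.05 in the main fit. Called members, 6 for PRDX1 with RANKL and 19 for RANKL without PRDX1, became 1 and 11 with the length trend removed, also with the replicate block added, 4 and 14 under quantile normalization and 4 and 15 under upper quartile scaling. The medians over all 78 members became -0.19 and 0.27 with the length trend removed, with or without the block, -0.29 and 0.37 under upper quartile scaling, and 0.35 for RANKL under quantile normalization. For RANKL with PRDX1 the median was 0.092 under quantile normalization and upper quartile scaling and 0.082 with the length trend removed, with or without the block. For PRDX1 + RANKL against neither, 1 of the 2 calls was left under quantile normalization, upper quartile scaling and removal of the length trend, with or without the block. The interaction median became -0.17 and its calls 4 (Mrps36 and Mrpl15 lost) with the length trend removed, with or without the block, and the calls were 5 (Mrpl15 lost) under quantile normalization and upper quartile scaling. By the adjusted p alone, called members were 12 and 68 for PRDX1 without and with RANKL, 70 and 27 for RANKL without and with PRDX1, 26 for both against neither and 34 for the interaction. Leaving out single libraries gave 2 to 4 calls for RANKL with PRDX1, 1 to 2 for both against neither, 5 to 8 for PRDX1 with RANKL, 19 to 23 for RANKL without PRDX1 (with 16 of the 19 shared when untreated replicate 1 or RANKL replicate 1 was left out) and 4 to 8 for the interaction. Same-numbered libraries deviated together very little (correlations 0.0085 to 0.096). Low correlations cannot show whether such libraries share a culture or batch, and the main fit did not pair them. The replicate block alone left the counts at 6, 19, 2, 2 and 6. Calls near the fold depend most on these choices, and the cause was not tested. With 2 libraries a group, changes under about 0.15 (log2) in a typical member were within the 95% interval.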
